A study of Mus musculus with 4 samples.

Results

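Nos2, the gene of the inducible nitric oxide synthase, and 9 genes of arginine and nitric oxide metabolism were examined in S-180 cells, a mouse sarcoma line, after fluoxetine. The set holds the nitric oxide synthases Nos1, Nos2 and Nos3, the arginases Arg1 and Arg2, the arginine-recycling enzymes Ass1 and Asl, the cofactor enzyme Gch1, and the methylarginine hydrolases Ddah1 and Ddah2. These 10 genes, of 23771 gene symbols on the array, were chosen by the large Nos2 signal difference between the groups and completed by pathway, and they were read through all 12 of their probes out of 56558. The difference between fluoxetine and control therefore chose the set, and the members' values below are a description with no test.

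Both groups were S-180 cells in RPMI medium with 10% serum, kept for 12 h either without the drug (2 control samples) or with 20 µM fluoxetine, a selective serotonin reuptake inhibitor (2 fluoxetine samples). No genetic change is named for either group, and the cells were a single cultured line. The submitters call the samples of a group biological replicates and do not say whether they were separate cultures, so any p-value measures only the spread between these samples. RNA was hybridised to 4 single-colour Agilent mouse arrays, 1 per sample.

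Nitric oxide synthases make nitric oxide and citrulline from arginine, and need flavins, haem and the cofactor tetrahydrobiopterin. Nos2 is the inducible form, known best from macrophages exposed to bacterial products and interferon gamma, where its amount is set largely by transcription; Nos1 is the neuronal and Nos3 the endothelial form. Arginases draw on the same arginine to make ornithine and urea, and argininosuccinate synthase and lyase (Ass1, Asl) turn citrulline back into arginine.

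The arrays lay on 1 slide and were read in 1 scan, the control arrays in neighbouring places and the fluoxetine arrays likewise, so position and treatment cannot be told apart. The software marked between 51.7% and 53.5% of non-control spots as well above background, and no spot as saturated (0 on each array). The 75th percentile of the signal, to which each array was scaled, ran from 356 to 449. The labelled cell type was set against marker genes. Both control arrays detected 6 of 8 mesenchymal markers well above background, among them Vim and S100a4, and both fluoxetine arrays 5. The collagen gene Col1a2 was the one no longer detected with fluoxetine. It was at least 2.38-fold lower there, a bound set against the lowest signal that counted as well above background on those arrays. Limma called it lower (adjusted p = 0.0119), but from fluoxetine readings below that level. Its probe passed the filter through the control arrays only, so this p-value does not test the bound. Col3a1 and Pdgfrb were detected on none. Of the epithelial markers, the keratin genes Krt8 and Krt18 and Epcam were well above background on every array, and the cadherin gene Cdh1 on none.

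**Figure D1:**
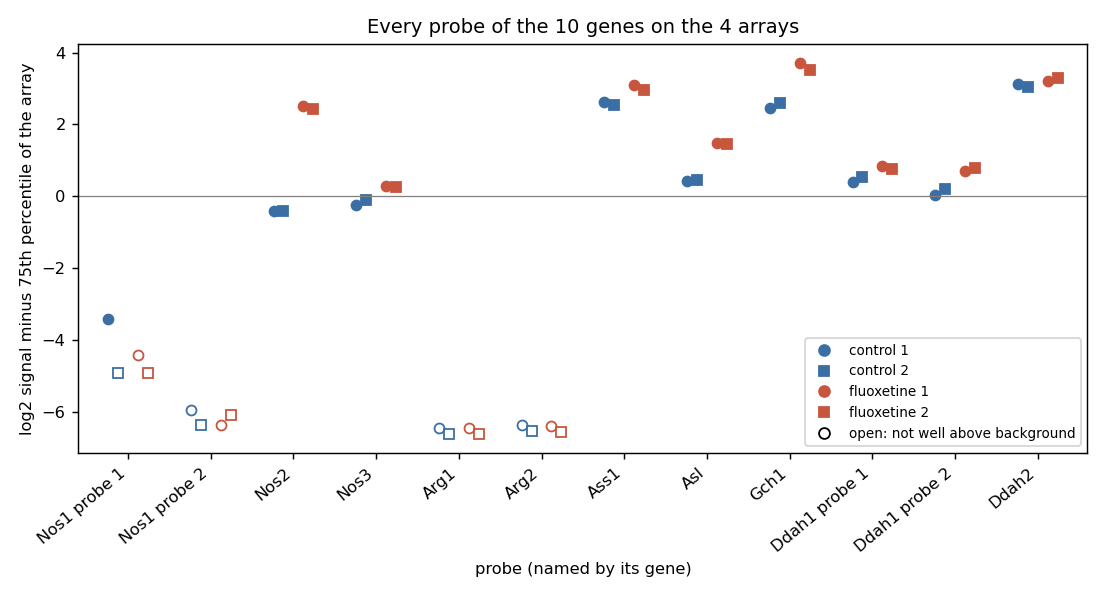
Scaled log2 signal (log2 signal minus the 75th percentile of the array, vertical axis) of each of the 12 probes on the 2 control arrays (blue) and the 2 fluoxetine arrays (red), where circles are replicate 1, squares replicate 2 and open symbols readings not well above background. The Nos2 probe separates the groups by 2.88, and all readings of Arg1 and Arg2 are open. Heights of different probes cannot be compared with each other.

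Nos2 was read by 1 probe, which was well above background on all 4 arrays. Its processed signal was 337.5 and 312.8 on the control arrays, and 2029.7 and 2255.4 on the fluoxetine arrays. On the scaled log2 axis these are -0.41, -0.41, 2.51 and 2.43. Both fluoxetine arrays stood above both control arrays, and the gap between the groups was far wider than the gap within either. The difference was 2.88 ± 0.08 (log2, standard error from limma, n = 2 per group), which is 7.36-fold, with a 95% interval from 6.36-fold to 8.53-fold. By this difference Nos2 ranked 19 from the top among 13539 tested genes. In bulk RNA, more RNA per cell and more cells that carry it cannot be told apart.

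The constitutive synthases gave another picture. Nos3 was well above background on all arrays, at scaled log2 values of -0.23 and -0.10 in control and 0.28 and 0.25 with fluoxetine. Its groups did not overlap, and its difference was 0.43 ± 0.08 (log2, n = 2 per group), or 1.34-fold. Neither probe of Nos1 passed the filter on dim probes: the first was well above background only on control 1 (scaled log2 -3.41) and not on control 2 (-4.92), fluoxetine 1 (-4.42) or fluoxetine 2 (-4.93). The second ran from -6.37 to -5.95 and was not well above background on any array. No fold is given for Nos1, whose readings on both arrays of the fluoxetine group are only bounds.

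The arginases, which compete with the synthases for arginine, were not well above background on any of the 4 arrays. Arg1, the cytosolic form, read -6.45 and -6.60 in control and -6.44 and -6.62 with fluoxetine on the scaled log2 axis. Arg2, the mitochondrial form, read -6.36 and -6.53 in control and -6.39 and -6.56 with fluoxetine. The lowest readings well above background lay between -4.72 and -4.33, so both probes sat at the floor of these arrays. A difference between the groups was not detectable for either gene at this signal.

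The recycling pair was measured well. Ass1 encodes argininosuccinate synthase, which joins citrulline to aspartate. Its scaled log2 values were 2.61 and 2.54 in control and 3.09 and 2.95 with fluoxetine. Both fluoxetine values stood above the control values, by 0.44 ± 0.09 (log2, n = 2 per group), or 1.36-fold. Asl encodes argininosuccinate lyase, which releases arginine. It had processed signals of 602.9 and 571.2 in control and of 988.2 and 1150.6 with fluoxetine. On the scaled log2 axis these are 0.43, 0.46, 1.47 and 1.46, so replicates differed by far less than the groups. The difference of Asl was 1.02 ± 0.07 (log2, n = 2 per group), or 2.03-fold, with an interval from 1.77-fold to 2.33-fold.

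Gch1 encodes GTP cyclohydrolase, the first and rate-limiting enzyme of tetrahydrobiopterin synthesis. The control arrays gave processed signals of 2452.2 and 2511.2, and the fluoxetine arrays of 4695.5 and 4758.5. The scaled log2 values were 2.45, 2.60, 3.72 and 3.51, again with both fluoxetine arrays above both control arrays. The difference was 1.09 ± 0.12 (log2, n = 2 per group), or 2.13-fold, with an interval from 1.71-fold to 2.65-fold. After Nos2 it was the largest difference among the 7 members that could be tested.

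Promoter windows from RefSeq (GRCm38.p6, 250 bases before to 50 after the transcription start) matched 5 of the 10 genes: Nos1, Ass1, Gch1, Ddah1 and Ddah2. The windows of Gch1, which had the largest difference of these, and of Ddah2, which had the smallest of those tested, are printed for comparison. The Gch1 window is chr14:47189364-47189663 on the minus strand and that of Ddah2 is chr17:35058785-35059084 on the plus strand. Capitals mark matches on either strand to TGACG (the core of the cAMP response element), the CCAAT box, the GC box GGGCGG or the NF-kappaB consensus.
Gch1: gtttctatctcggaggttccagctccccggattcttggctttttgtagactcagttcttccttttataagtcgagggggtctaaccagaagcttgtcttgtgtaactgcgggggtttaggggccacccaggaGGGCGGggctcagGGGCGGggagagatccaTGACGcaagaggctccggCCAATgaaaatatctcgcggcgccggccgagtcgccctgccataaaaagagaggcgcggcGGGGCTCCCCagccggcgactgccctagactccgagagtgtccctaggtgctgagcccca
Ddah2: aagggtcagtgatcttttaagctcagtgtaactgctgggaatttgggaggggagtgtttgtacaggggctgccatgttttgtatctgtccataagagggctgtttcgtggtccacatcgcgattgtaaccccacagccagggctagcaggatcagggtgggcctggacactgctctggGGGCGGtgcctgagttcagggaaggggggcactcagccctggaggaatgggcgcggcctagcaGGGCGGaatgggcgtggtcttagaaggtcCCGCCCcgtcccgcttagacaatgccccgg

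The Gch1 window held TGACG once, with its first base 88 bases before the start, and CCAAT once, 70 bases before it. It also held GGGCGG at 118 and 105 bases before the start, and the NF-kappaB consensus once, 10 bases before it, in a stretch that matches the consensus on both strands. No match overlapped another. The Ddah2 window held only GGGCGG, at 3 places. Of all 32851 windows of the same length, 20.8% held TGACG, 37.4% the CCAAT box, 35.7% the GC box and 8.46% the NF-kappaB consensus. Among the other matched members, Nos1 had 1 match to TGACG and 1 to the NF-kappaB consensus, Ass1 had 1 to GGGCGG, and Ddah1 had 0 to any of the 4 motifs.

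Ddah1 and Ddah2 belong to the hydrolase family named for the breakdown of asymmetric dimethylarginine, a natural inhibitor of the synthases. Ddah1 had 2 probes, both well above background on all arrays. The brighter read 0.41 and 0.54 in control and 0.83 and 0.76 with fluoxetine on the scaled log2 axis. The other read 0.03 and 0.20 in control and 0.69 and 0.79 with fluoxetine. Fluoxetine arrays stood above control arrays at both, with differences of 0.32 ± 0.09 and 0.62 ± 0.10 (log2, n = 2 per group), so the probes had 1 direction and unequal sizes. Ddah2 read 3.12 and 3.05 in control and 3.21 and 3.28 with fluoxetine, and its groups lay apart by little. Its difference was 0.16 ± 0.08 (log2), with a 95% interval from -0.06 to 0.38, so a rise of up to 1.30-fold or a small fall lies within the error.

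**Figure D2:**
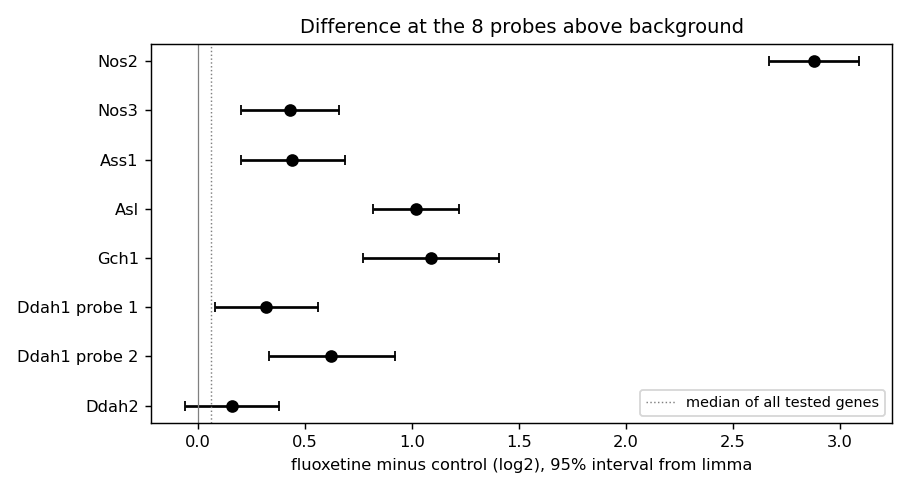
Difference between fluoxetine and control (horizontal axis, log2) at the 8 member probes that passed the filter on dim probes, each point with its 95% interval from limma and 2 arrays per group. Nos2 stands at 2.88, Gch1 at 1.09 and Asl at 1.02, while the interval of Ddah2 runs from -0.06 to 0.38; the dotted line is the median of all tested genes, 0.06.

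Of the 10 members, 7 passed the filter, and Nos1, Arg1 and Arg2 did not. Limma, fitted over all 13539 genes with Benjamini-Hochberg adjustment, called 5 of the 7 at an adjusted p under 0.05, all higher with fluoxetine (Nos2, Nos3, Ass1, Asl and Gch1), and did not call Ddah1 or Ddah2. In the same fit 26.9% of all tested genes were called, 16.8% higher and 10.1% lower. The groups of all 7 lay apart, as did those of 72.5% of all tested genes. The median difference was 0.44 over the 7 and 0.06 over all genes (log2). Since this contrast chose the set, nothing is read from these counts. The count of 5 was 3 without control 1 or without control 2 (Nos2, Asl and Gch1 each time). It was 0 without fluoxetine 1 or without fluoxetine 2, with 5 members at an unadjusted p under 0.05 in each case.

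The genes around the members were described through 7 lists with 74 genes, of which 60 could be tested. The test found 9 higher, 2 lower and 49 that did not pass, so 18.3% were called, against 26.9% of all genes in this contrast. Limma called fewer of the 60 without control 1 or without control 2. It then also called genes that did not pass in the main fit: Agmat without control 1, and Oat and Pde5a without control 2. It called 0 without fluoxetine 1 or without fluoxetine 2, where 9 and 16 had an unadjusted p under 0.05. So no call on a list gene below held without either fluoxetine array. Adjusted p-values are those of limma over all genes.

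Among 6 tested genes of tetrahydrobiopterin synthesis and recycling, beside Gch1, 1 rose, 0 fell and 5 did not pass, with 3 at an unadjusted p under 0.05 by limma (median 0.11). Qdpr, the dihydropteridine reductase that regenerates the cofactor, read 4.34 and 4.53 in control and 4.94 and 4.92 with fluoxetine (scaled log2). It rose by 0.49 ± 0.10 (adjusted p = 0.0353), and its other probes differed by 0.59 and 0.61. Spr, sepiapterin reductase, which completes the synthesis, was at -0.30 and Gchfr, the feedback regulator of GTP cyclohydrolase, at 0.24.

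Of 5 tested arginine transporter genes, 0 rose, 1 fell and 4 did not pass (median -0.24). Slc7a3, a cationic amino acid transporter, read 1.01 and 1.10 in control and 0.67 and 0.57 with fluoxetine. It fell by 0.44 on the log2 scale (adjusted p = 0.0357, standard error 0.09), but with median scaling the fall was 0.22 and was not called (adjusted p = 0.0771). Slc7a2, the transporter most tied to inducible synthase in macrophages, was not well above background on any array. Slc7a1, the widely expressed carrier, was at 0.11 ± 0.09, and Slc7a7 at -0.27 ± 0.11, neither passing. For Slc7a6 the brighter probe was at -0.24 and the other at 0.49.

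None of 9 tested genes for synthase partner proteins was called, in a list that includes Hsp90 and the SPRY domain adaptors (limma; 4 had an unadjusted p under 0.05). Spsb2, an adaptor that marks inducible synthase for degradation, had the largest absolute difference (0.29 ± 0.09, adjusted p = 0.0775). Of 6 tested genes of methylarginine formation and breakdown, 1 rose and 5 did not pass (median 0.09). Prmt2, an arginine methyltransferase, read 5.31 and 5.36 in control and 6.06 and 5.97 with fluoxetine. It rose by 0.68 ± 0.08 (adjusted p = 0.0158), and its other probes differed by 1.17 and 1.21. Prmt1, the main source of asymmetric methylarginine, was at -0.03 ± 0.09, and Prmt3 at 0.19 ± 0.11, neither passing.

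Of 9 genes of nitric oxide sensing and removal, 4 were too dim to test. The guanylate cyclase genes Gucy1a1 and Gucy1b1, which encode the usual nitric oxide receptor, were not well above background on any array. Of 5 tested genes of this list, limma called 0, with 2 at an unadjusted p under 0.05 (median -0.34). Pde5a, which degrades cyclic GMP, read -0.67 and -1.50 in control and -1.92 and -1.86 with fluoxetine. Its difference was -0.80 ± 0.30 (adjusted p = 0.12). The control values lay far apart, and without control 2 the difference was -1.21 and passed (adjusted p = 0.0205), whereas without control 1 it was -0.39 and did not (adjusted p = 0.109). Gucy1b2, another guanylate cyclase subunit gene, was well above background on all 4 arrays but varied widely (-1.75 and -3.53 in control, -3.83 and -2.98 with fluoxetine), and its difference of -0.77 ± 0.69 did not pass. Adh5, which removes nitrosoglutathione, was at 0.06 ± 0.10.

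On the ornithine side, 2 of 9 tested genes rose, 0 fell and 7 did not pass (median 0.31). They were Azin2, an antizyme inhibitor gene (0.38 ± 0.09, adjusted p = 0.048), and Aldh18a1, whose enzyme makes the precursor of proline and ornithine from glutamate (0.31 ± 0.07, adjusted p = 0.0485). Both stood close to the threshold. Aldh18a1 was not called with quantile normalization (adjusted p = 0.061), nor Azin2 with normexp (adjusted p = 0.0724). Neither was called with the replicate block (adjusted p = 0.157 for Aldh18a1 and 0.12 for Azin2). Agmat, an agmatinase-like gene, had a larger difference that did not pass (0.69 ± 0.24, adjusted p = 0.103), and it passed without control 1 (1.02, adjusted p = 0.0391) but not without control 2 (0.37, adjusted p = 0.0938). Oat, which turns ornithine toward proline and glutamate, was at 0.37 ± 0.14. The urea cycle genes Otc and Nags were not well above background on any array. Odc1, the first enzyme of polyamine synthesis, was at 0.18 at its brighter probe and 0.81 at the other.

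The last list held 20 transcription factors, receptors and adaptors known to act on Nos2 induction, all tested. In it 5 rose and 1 fell, while 14 did not pass (median 0.19), so 30% were called, against 26.9% of all genes. Ifngr2, a chain of the interferon gamma receptor, rose by 0.73 ± 0.13 (adjusted p = 0.0281), the NF-kappaB subunit gene Relb by 0.68 ± 0.08 (adjusted p = 0.0155) and Klf6, a zinc finger factor, by 0.66 ± 0.09 (adjusted p = 0.0195). Fos, an AP-1 subunit, read -0.59 and -0.82 in control and -2.36 and -2.32 with fluoxetine. It fell by 1.64 on the log2 scale (standard error 0.11, adjusted p = 0.00982). The other rises were Jun (0.43, adjusted p = 0.0361) and Irf8 (0.39, adjusted p = 0.0372), named after their values were seen.

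The remaining members of that list include main mediators of Nos2 induction in macrophages. Rela, the NF-kappaB subunit p65, was at 0.35 ± 0.09 and did not pass (adjusted p = 0.0554), and its other probe was at 0.73. It was called with quantile normalization (adjusted p = 0.0389) and with the mean of its probes (0.54, adjusted p = 0.0258). It was not called with normexp (adjusted p = 0.0515) or with the replicate block (adjusted p = 0.135). Nfkb1 (0.05 ± 0.07), the inhibitor gene Nfkbia (-0.09 ± 0.11) and Irf1 (0.26 ± 0.08) did not pass. The other probe of Irf1 was at 0.69, and with the mean of its probes Irf1 was called (0.48). Among the receptors, Tlr4 was at 0.30 ± 0.17 and Ifngr1 at -0.12 ± 0.14, neither passing.

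**Figure D3:**
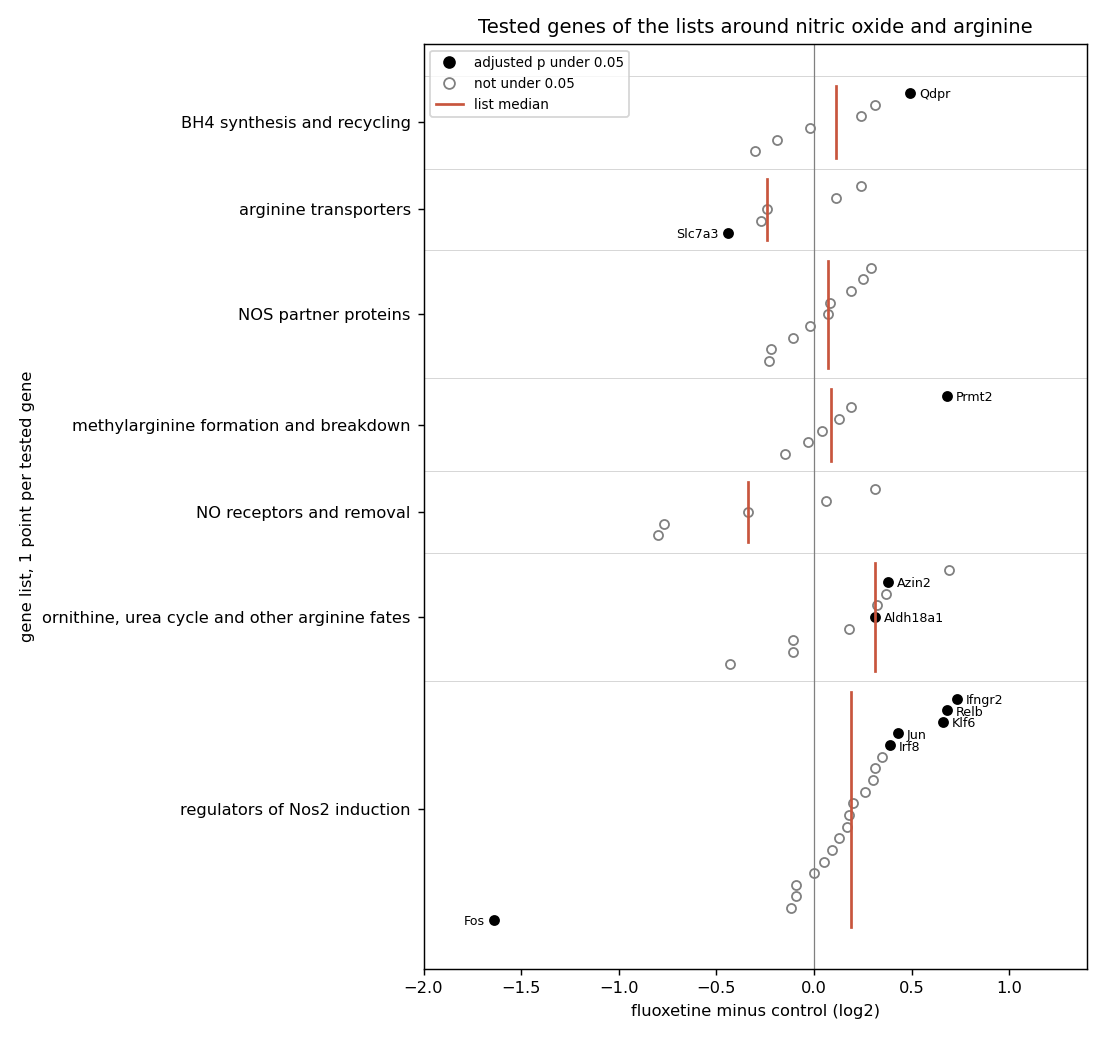
Difference between fluoxetine and control (horizontal axis, log2) for each of the 60 tested genes of the 7 lists, with 1 point per gene, filled and named where the adjusted p from limma was under 0.05 and open otherwise. Red lines are list medians, which run from -0.34 to 0.31, and Fos at -1.64 is the lowest point.

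Nos2 is a classical macrophage gene, so leukocyte markers were read beside it. Both control arrays detected 7 of 16 markers well above background, and both fluoxetine arrays also 7. The summed level of the list, as the log2 of the sum of scaled signals, was 5.25 to 5.37 in control and 6.0 to 6.19 with fluoxetine. That higher sum rested on Cd68, the brightest marker: without it the sum of the other 15 was 4.21 to 4.28 in control and 3.77 to 3.85 with fluoxetine. Of the 7 tested markers, 1 rose, 2 fell and 4 did not pass (median -0.16), so 42.9% were called, against 26.9% of all tested genes. Ptprc (the common leukocyte antigen), Adgre1 (a macrophage surface receptor), Spi1 (the myeloid factor PU.1) and Lyz2 were not well above background on any array. Cd68, a lysosomal glycoprotein gene, rose by 1.39 ± 0.12 (adjusted p = 0.0119). Itgam fell by 1.96 on the log2 scale at its brighter probe (adjusted p = 0.00636; the other was at 0.83), and Mrc1 by 0.67 (adjusted p = 0.0155), while Csf1r (-0.16), Cd14 (-0.13), Fcer1g (0.27) and Aif1 (-0.39) did not pass. Endothelial markers were read beside Nos3: Pecam1 and Tie1 were detected on all 4 arrays and the other 4 of 6, Cdh5, Kdr, Tek and Vwf, on none. The summed endothelial level was -1.48 to -1.36 in control and -1.22 to -1.20 with fluoxetine, and its part in the Nos3 values was not tested.

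**Figure D4:**
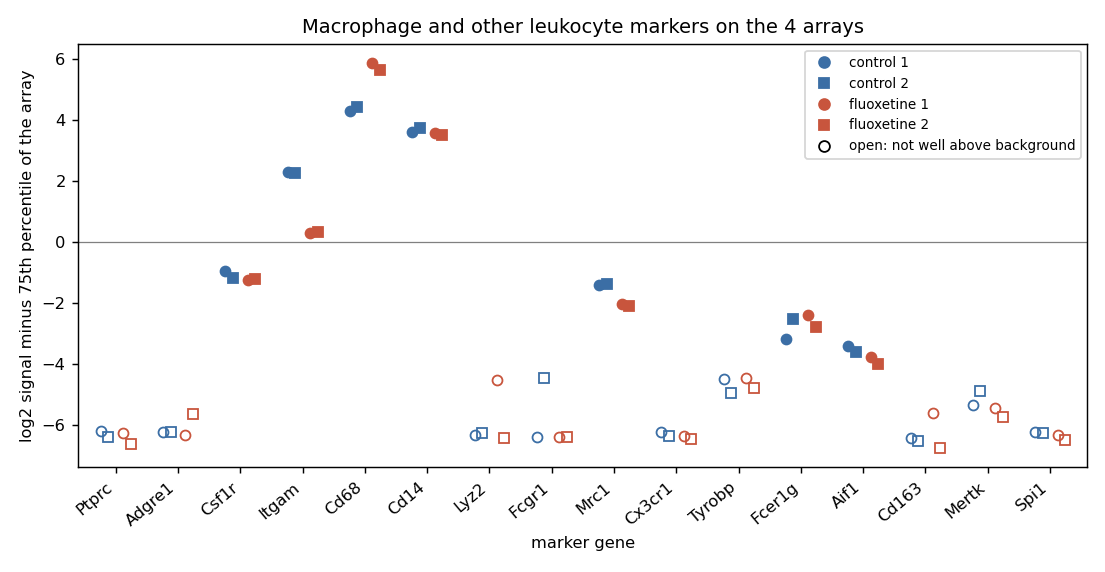
Scaled log2 signal (vertical axis, log2 signal minus the 75th percentile of the array) of 16 macrophage and other leukocyte markers, 1 probe each, on the 2 control arrays (blue) and 2 fluoxetine arrays (red); open symbols are readings not well above background. Ptprc, Adgre1 and Spi1 are open on all 4 arrays, and the plotted probes of Cd68 and Itgam move in opposite directions.

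The genes whose pattern over the 4 arrays lay closest to that of Nos2 were taken by Euclidean distance between scaled log2 values, each gene centred on its control mean, among 11718 genes well above background on every array. They were the AMP deaminase gene Ampd3 (distance 0.15), Snora34, which yields a small nucleolar RNA (0.28), Creb3l3, whose factor is held in the endoplasmic reticulum membrane (0.51), Ndrg4 (0.59) and the P5-type ATPase gene Atp13a4 (0.59). With 4 arrays in 2 groups, this likeness is mainly the likeness of the group differences, which ran from 2.47 for Ndrg4 to 3.14 for Atp13a4 against 2.88 for Nos2.

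The Nos2 difference stayed between 2.49 and 3.09 over 14 other settings of the analysis. Those of Gch1 and Asl stayed between 0.98 and 1.30 and between 0.85 and 1.24. All 7 tested members were higher with fluoxetine under each of these settings, down to 0.10 for Ddah2. Median scaling, which raised the median difference of all genes by 0.21, gave the highest value for each of them, and relative to that median Nos2 was at 2.82 with either scaling.

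**Figure D5:**
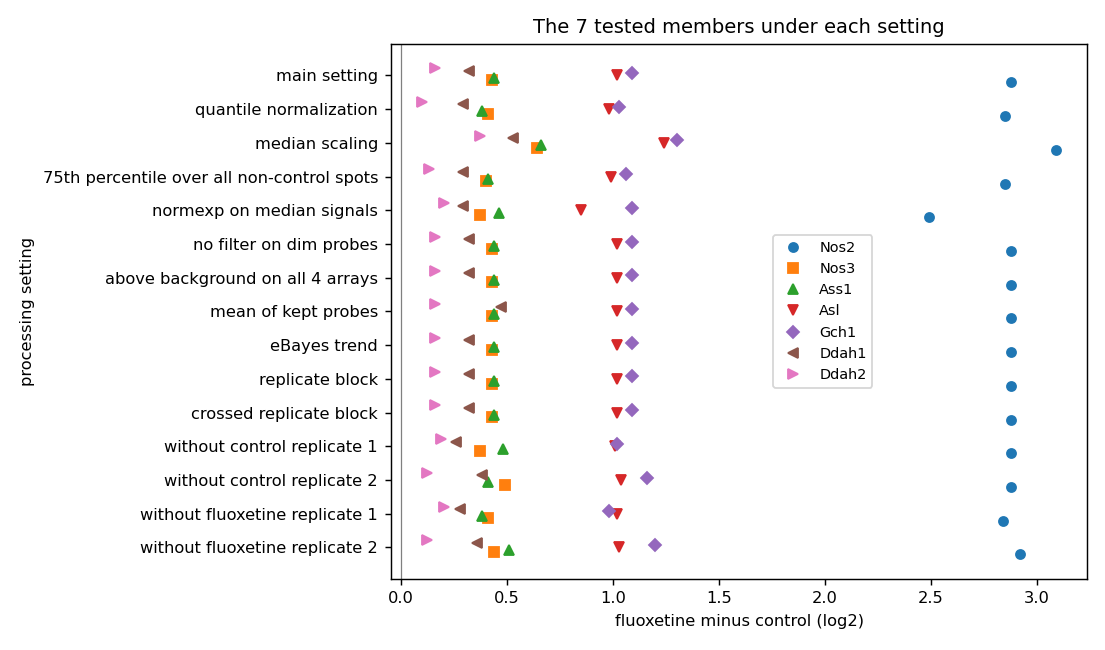
Difference between fluoxetine and control (horizontal axis, log2) of the 7 tested members under the main setting and 14 others (vertical axis), with 1 symbol per gene. Nos2 runs from 2.49 with normexp background correction to 3.09 with median scaling, and no member crosses 0.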

How the data were processed

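Per the file headers, the authors extracted linear spot intensity with Feature Extraction 12.1.0.3. The deposited processed signal is background-corrected but carries no scaling from array to array, and the deposited yes-or-no marks (detection, saturation, non-uniformity, outliers) were used too. Further steps by the authors: not given in the sources used here. There were 59305 non-control spots per array.

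Control and non-uniform spots (47 probes) and outlying replicate spots were left out, spots of a probe were averaged, and the 75th percentile over distinct probes was subtracted from log2 signals. Symbols came from the RefSeq gene table (GRCm38.p6) through accessions without versions: 34645 probes had 1 symbol, 0 several and 21913 none. A probe was kept when well above background on both arrays of a group, and the brightest kept probe stood for a gene. The test was limma 3.58.1 in R 4.3.3 (lmFit, eBayes, group only, 4 arrays, Benjamini-Hochberg over all genes). A check on simulated arrays, with a common spread for all genes, covered its estimated differences. It cannot show the rate of false calls in these data. An exact permutation test of 2 against 2 arrays cannot go below p = 0.333. The number of arrays limits the precision.

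Members, lists and markers were chosen with earlier results of these data known. The naming rule took all members, the called genes of each list up to the 4 largest, its largest gene not called, and the 5 genes most like Nos2; other list genes and markers named as examples were chosen after their values were seen. Some list genes under this rule are not reported here. Alternatives were other scalings, background correction, filters, probe rules, a variance trend, replicate blocks and leaving out each array.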

Additional observations from a re-analysis of the deposited data

How the results depend on the processing

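Over all genes, limma called 3647. It called 6299 with median scaling, where 87.1% of calls were higher against 62.3% with the 75th percentile, and 0 without a filter on dim probes (5272 at an unadjusted p under 0.05). Leaving out 1 array gave from 0 to 2666 calls: 989 without control 1, and 0 without fluoxetine 1 or fluoxetine 2, with 4070 and 4537 at an unadjusted p under 0.05. Of the 7 tested members, 7 were called with median scaling, and 6 with the mean of kept probes or with a variance trend. Ddah1 was called in each of these settings, and Ddah2 with median scaling only. Over all 13539 genes the mean of kept probes gave 3623 calls and the trend 4747. Without the filter 0 members were called, where 6 had an unadjusted p under 0.05. Leaving out any 1 array gave fewer member calls than the main setting. Of the list genes, 28 were called with median scaling, 20 with a variance trend, 0 without the filter (15 at an unadjusted p under 0.05) and 0 to 8 with 1 array left out; the cause was not tested. Nos2 differed by 3.09 with median scaling and by 2.49 with normexp on median signals. Normexp (in place of mean signals, which were not used here), the percentile over all spots and the crossed block were chosen after seeing the data.

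The labels do not say whether same-numbered arrays share a culture or day, so they were not taken as pairs. With the replicate block limma called 1859 genes, 3 members (Nos2, Asl and Gch1) and 4 list genes (Fos, Klf6, Prmt2 and Relb). The other list genes called in the main fit, among them Qdpr, Ifngr2, Jun and Irf8, were not called with it. The control and fluoxetine deviations of same-numbered arrays correlated at -0.12 over genes, and with the crossed replicate block 2679 genes, 3 members and 7 list genes were called. Dim probes limit Nos1, Arg1 and Arg2 to bounds.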

Other observations

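Probes of 1 gene did not always move together. Among the tested list genes, 19 had several kept probes, and for 8 of them the probes differed in sign. The brighter probe of Itgam was at -1.96 ± 0.08 and its other probe at 0.83 ± 0.58 (log2, fluoxetine minus control, n = 2 per group).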
